A study of Mus musculus with 10 samples.

Results

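The genes described here are the solute carriers that are expressed in sorted mouse bone-marrow progenitors, which are 163 of the 341 solute carrier symbols (Slc or Slco names, with Slc4a1 left out) among 23240 genes measured by RNA-seq. They were selected on the measured level: a solute carrier counts as expressed when it reached 1 RPKM in at least 2 of 10 libraries, where RPKM is the number of reads scaled to the length of the gene and to the depth of the library. Membership therefore says nothing about differences between groups, but a gene that reached the limit in 1 group alone was selected through the group where its level was highest. This holds for Slc4a8 in wild-type GMP and for Slc14a2 and Slc22a15 in XMP. Just inside the limit were Slc22a15, Slc6a9 and Slc46a1, whose second-highest library held 1.02, 1.07 and 1.07 RPKM. Among those just outside were Slc9a5 and Slc27a6 with 0.936 and 0.931 RPKM. Of the 178 solute carriers that were not selected, 19 were at 0 in every library.

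Mice of the control groups were Runx1+/+-Tg(vav-Cre) and those of the other groups Runx1fl/fl-Tg(vav-Cre), in which the Cre recombinase deletes Runx1, so every group carries the Cre transgene. The vav promoter drives Cre in blood cells from early in development, so the deletion is not confined to the sorted stage. The sort took lin- sca- kit+ CD41- CD105- cells, and the gates then differed in CD16/32 and CD150. GMP (granulocyte-monocyte progenitors) were CD16/32+ CD150-, MEP (megakaryocyte-erythroid progenitors) were CD16/32- CD150+, and XMP were CD16/32+ CD150+ and were taken from Runx1-deleted marrow alone. Each of the 5 groups (wild-type GMP, Runx1-deleted GMP, wild-type MEP, Runx1-deleted MEP and XMP) has 2 libraries. The labels do not say whether these came from separate mice or give their age, so a p-value here reflects how much libraries differ and no more than that. Because RNA was taken from whole sorted populations, a lower level cannot be told apart from fewer cells that express the gene.

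Solute carriers are membrane proteins that move ions, sugars, amino acids, nucleosides, metals, vitamins and metabolites across the plasma membrane and the membranes of organelles, either passively or coupled to the gradient of another solute. In the red cell lineage they serve iron uptake and export, heme synthesis in mitochondria, and the transport of glucose, urea and anions through the red cell membrane. In granulocyte and monocyte precursors, lysosomal and plasma membrane carriers supply amino acids and nucleosides to cells that divide fast. Runx1 encodes a transcription factor of blood development that binds DNA with its partner Cbfb, and its preferred site contains the letters TGTGGT.

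The bases before the transcription start of 4 members on which the comparisons below turn are printed first, from RefSeq on the GRCm38.p6 build, read 5′ to 3′ on the strand of the gene, without any base that overlaps an annotated exon. Slc22a4 was chosen for its difference between gates and genotypes in MEP, Slc41a3 because it rose in both gates, Slc22a3 because its level fell in Runx1-deleted MEP, and Slc28a2 because it was high in GMP. Capitals mark the letters TGTGGT or, on the other strand, ACCACA, and the letters AGATAA or TTATCT, which GATA factors prefer. No 2 marked matches overlap. Slc22a4 lies on the minus strand, and the run covers chr11:54028105-54028354, 250 bases.
Slc22a4: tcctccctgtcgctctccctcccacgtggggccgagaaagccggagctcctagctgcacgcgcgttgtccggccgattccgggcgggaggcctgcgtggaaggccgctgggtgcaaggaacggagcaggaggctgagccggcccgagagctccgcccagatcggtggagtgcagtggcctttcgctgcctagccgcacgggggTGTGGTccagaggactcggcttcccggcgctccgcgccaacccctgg
Slc41a3 lies on the plus strand, and the run covers chr6:90618996-90619146, which are 151 bases that end 100 bases before the start so that no annotated exon is included.
Slc41a3: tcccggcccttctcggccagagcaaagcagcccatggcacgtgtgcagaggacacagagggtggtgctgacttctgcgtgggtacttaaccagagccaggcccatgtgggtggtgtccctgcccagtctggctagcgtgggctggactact
Slc22a3 lies on the minus strand, and the run covers chr17:12507705-12507954, 250 bases.
Slc22a3: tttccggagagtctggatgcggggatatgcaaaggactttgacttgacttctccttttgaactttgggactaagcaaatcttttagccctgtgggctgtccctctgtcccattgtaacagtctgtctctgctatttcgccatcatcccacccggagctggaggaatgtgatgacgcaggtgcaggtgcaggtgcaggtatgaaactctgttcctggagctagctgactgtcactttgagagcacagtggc
Slc28a2 lies on the plus strand, and the run covers chr2:122426185-122426434, 250 bases.
Slc28a2: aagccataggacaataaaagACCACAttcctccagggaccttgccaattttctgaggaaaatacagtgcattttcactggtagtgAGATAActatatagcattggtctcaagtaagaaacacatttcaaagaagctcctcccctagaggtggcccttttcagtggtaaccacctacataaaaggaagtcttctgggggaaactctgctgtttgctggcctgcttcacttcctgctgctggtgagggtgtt
In Slc22a4 the letters TGTGGT begin 47 bases before the start, in a stretch with 26 CG pairs in 250 bases. In Slc28a2, with 0 CG pairs in the same length, ACCACA begins 230 bases and AGATAA 165 bases before the start. The 250 bases of Slc41a3 and of Slc22a3 hold neither motif. A match to the RUNX letters is common: 18 of the 123 members with an entry in the promoter table (14.6%) hold one, against 3832 of 27025 genes (14.2%). The GATA letters were found in 9 members (7.32%) and in 2771 genes overall (10.3%). These matches describe the sequence and are not evidence of binding.

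Levels of the 163 members spanned a wide range. Averaged over the 10 libraries, 58 members reached 10 RPKM and 28 stayed under 2 RPKM, and the median of the members was 7.21 RPKM against 10.96 RPKM for all 10905 genes that passed the same limit. In every one of the 10 libraries, 126 members were at 1 RPKM or more. Mitochondrial carriers held the highest levels. Slc25a5, an exchanger of ADP and ATP across the inner mitochondrial membrane, averaged 521 RPKM. Slc25a3, which brings phosphate into mitochondria, averaged 270 RPKM (269.6), and Slc25a4, the ADP/ATP exchanger of a sister gene, 101 RPKM. Slc25a5 ranged from 335 RPKM in an XMP library to 694 in a wild-type GMP library, and limma called it in none of the 6 comparisons (adjusted p from 0.353 to 0.999). Slc14a1, the urea transporter of the red cell membrane, followed with a mean of 81.3 RPKM that came almost wholly from MEP and XMP. Slc48a1, which moves heme out of lysosomes, averaged 66.9 RPKM, and Slc1a5, a plasma membrane carrier of glutamine and other neutral amino acids, 65.2 RPKM. In none of the 6 comparisons were 92 of the 163 members called, which does not show that they did not differ. The share of all tested genes called in none of them was not counted. Slc3a2, the heavy chain shared by several amino acid exchangers, lay between 35.1 and 50.2 RPKM in the 10 libraries.

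Grouped by substrate with a list of families, the 34 mitochondrial carriers summed to 1381 ± 88.7 RPKM (SD, n = 2) in wild-type GMP and to 988 ± 137 in XMP. Members were placed by family unless listed singly, so a class can hold a carrier of another substrate. Slc25a28, Slc25a37, Slc25a38 and Slc25a39 were counted with iron and heme instead, as was Slc46a1. Nucleoside carriers, with 4 members, summed in GMP to 74.0 ± 12.7 RPKM with Runx1 and 79.3 ± 3.40 without, in MEP to 33.1 ± 3.56 with Runx1 and 46.3 ± 10.8 without, and in XMP to 29.6 ± 0.353. Sugar carriers, with 11 members, ran the other way, from 84.5 ± 12.4 RPKM in wild-type GMP to 129 ± 3.58 in wild-type MEP and 155 ± 6.61 in XMP. The 8 iron and heme carriers summed to 234 ± 3.34 RPKM in Runx1-deleted MEP, against 161 to 192 RPKM in the other groups. These sums are descriptions, without a test, and in each of them a few genes carry most of the level.

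**Figure D1:**
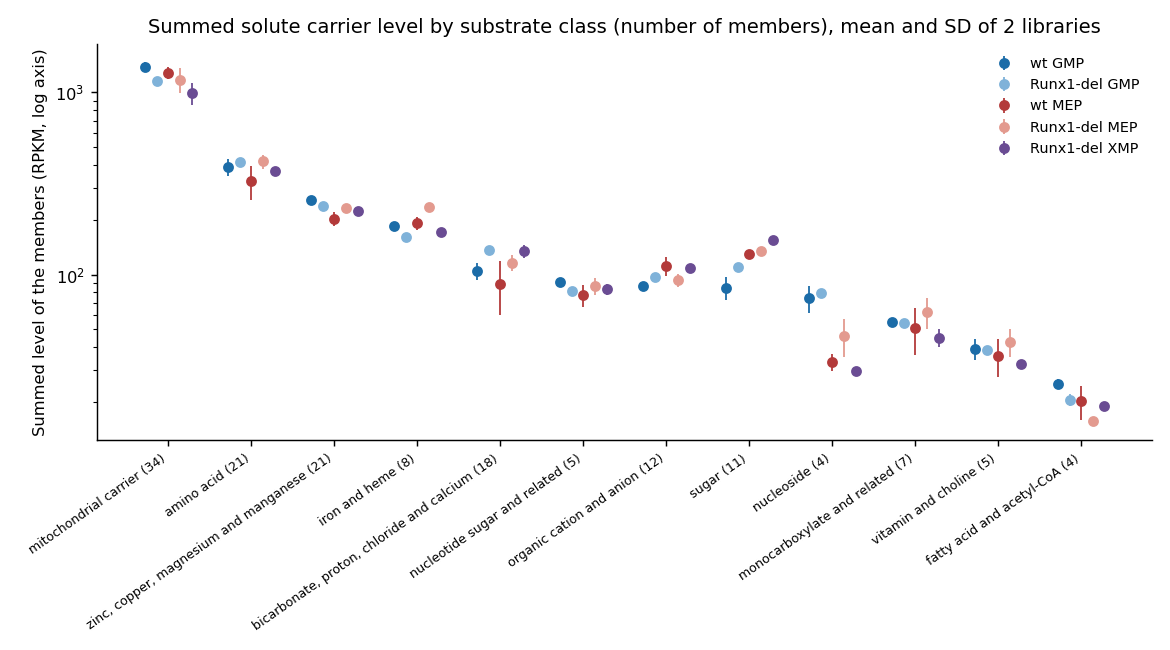
Summed level of the members of each substrate class with at least 4 members (RPKM, logarithmic axis), with the mean and SD of the 2 libraries of each group; the number of members stands in brackets. The nucleoside class lies higher in both GMP groups (74.0 and 79.3 RPKM) than in wild-type MEP and XMP (33.1 and 29.6), and the sugar class lies highest in XMP (155).

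The libraries held 20.8 to 54.9 M reads, which makes a single read over 1 kb worth 0.0182 to 0.0480 RPKM. Differences are given as log2(RPKM + 1) with the standard error of the limma fit, a scale that understates changes of low levels, and a gene was called at a Benjamini-Hochberg adjusted p under 0.05 over all 10905 genes tested. Members differed between the 2 libraries of a group by a median of 0.101 (Runx1-deleted GMP) to 0.312 (wild-type MEP) on the log2 scale, and in wild-type MEP 11 members differed by more than 1. Markers of the sorted lineages followed the gates: 7 granulocyte and monocyte genes summed to 11955 to 12118 RPKM in GMP with Runx1, 7780 to 8076 in GMP without it, 31.5 to 56.7 in both MEP groups and 135 to 171 in XMP. In the order wild-type GMP, deleted GMP, wild-type MEP, deleted MEP and XMP, the 8 megakaryocyte genes summed to 40.1 to 50.4, 115 to 133, 777 to 859, 565 to 693 and 1206 to 1494 RPKM. The 8 erythroid genes summed to 57.9 to 58.6, 128 to 226, 602 to 649, 698 to 954 and 401 to 682 RPKM. Basophil and mast cell markers, 6 genes, summed to 601 to 652 RPKM in wild-type GMP, 233 to 257 in Runx1-deleted GMP and at most 32.4 elsewhere. Of these genes, Cpa3 went the other way in GMP, from 135 and 95.5 to 228 and 213 RPKM. Their part in the GMP comparison was not tested. Lymphoid markers summed to at most 1.74 RPKM and macrophage markers to at most 11.6. Stromal and endothelial markers summed to at most 43.3, nearly all of it Pecam1 (43.1). None of the markers was at 0 in every library. Wild-type GMP came from lanes 2 and 3 and Runx1-deleted GMP from lane 5, so lane and genotype cannot be told apart in that gate. The comparisons also share libraries: those of genotype use the same wild-type libraries as the comparison of wild-type gates.

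Runx1, the targeted gene, was higher in the libraries labelled Runx1-deleted, with 28.5 and 26.8 RPKM in wild-type GMP against 63.0 and 72.3 in the deleted GMP, 17.2 and 25.5 in wild-type MEP against 41.5 and 36.8 in the deleted MEP, and 85.9 and 78.5 in XMP. These values sum the whole gene, and the labels do not name the floxed part, so they do not check the deletion. The name Runx1-deleted therefore follows the labels in every genotype comparison below.

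Wild-type GMP and wild-type MEP were compared to see which solute carriers belong to each gate without any deletion. GMP carried more of a nucleoside importer, of the copper protein Slc31a2, of lysosomal and plasma membrane amino acid carriers and of the sodium/calcium exchanger of mitochondria Slc24a6. MEP carried more of the urea transporter Slc14a1, of the glutamine carrier Slc38a5, of the iron importer Slc11a2 and of the organic cation transporter Slc22a3. Of the 163 members, 25 (15.3%) were higher in GMP and 25 (15.3%) lower, where 11.7% of all tested genes were higher and 9.83% lower. An unadjusted p under 0.05 was found for 68 members. For this count and those like it below, the share of all tested genes was not counted. The median difference was 0.02 for the members and -0.06 for all tested genes. The calls of 15 higher and 16 lower members were kept under each of the alternatives tried, among them leaving out each library. Lane 3 holds 1 library of each group, and there the 50 called members differed in the same direction, but these libraries are among the 4 that gave the calls. The even split rests on the wild-type MEP libraries: without replicate 1, 18 members were higher and 34 lower (11.2% and 18.1% of all tested genes), and without replicate 2, 43 and 23 (19.7% and 10.7%). The called members and the kept ones both include Slc4a8 and Slc14a2, which reached the limit in 1 group alone. Without such members 24 of 160 were called in each direction. The share of calls kept under each alternative was not counted over all tested genes, here or below.

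Higher in GMP was Slc28a2, which takes up purine nucleosides with sodium: the wild-type GMP libraries held 25.2 and 25.1 RPKM and the wild-type MEP libraries 2.46 and 3.06 (log2 2.80 ± 0.24, adjusted p = 6.94e-06, limma). Slc31a2, a copper carrier of intracellular membranes, held 8.28 and 8.86 RPKM against 0.482 and 0.519 (log2 2.67 ± 0.17, adjusted p = 8.33e-07). In both genes every GMP library lay above every MEP library by a wide margin. Slc24a6 held 24.5 and 22.6 RPKM against 3.72 and 4.01 (log2 2.34 ± 0.19, adjusted p = 4.04e-06). Slc2a6, a glucose transporter family member of lysosomes, held 4.06 and 2.49 RPKM in GMP against 0.142 and 0.124 in MEP (log2 1.89 ± 0.18, adjusted p = 1.54e-05).

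Of the 21 members of the amino acid class, 5 were higher in GMP and 3 lower, where 11.7% of all tested genes were higher and 9.83% lower. The 5 include Slc43a3, which was placed in this class with its family and not by its own substrate. Slc7a8, an exchanger of neutral amino acids that pairs with Slc3a2, held 18.4 and 14.4 RPKM in GMP against 2.30 and 3.46 in MEP (log2 2.17 ± 0.27, adjusted p = 0.00014). Slc36a1, which exports amino acids from lysosomes with protons, held 14.6 and 11.8 against 2.38 and 4.38 RPKM (log2 1.73 ± 0.25, adjusted p = 0.000357). Slc43a2, a facilitative carrier of large neutral amino acids, held 6.64 and 6.28 RPKM in GMP against 0.559 and 1.30 in MEP (log2 1.98 ± 0.20, adjusted p = 2.7e-05). The 3 amino acid carriers of the other direction were Slc38a5, Slc7a4 and Slc43a1. Slc38a5, which carries glutamine and other neutral amino acids in exchange for protons, was at 0.0812 and 0.0776 RPKM in GMP and at 13.1 and 16.8 in MEP (log2 -3.87 ± 0.26, adjusted p = 9.79e-07). The lowest library rests on 3 reads of this gene, and both MEP libraries lay far above both GMP libraries.

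Slc25a21, a mitochondrial carrier of oxodicarboxylates, showed a similar contrast, with 0.0544 and 0.104 RPKM in GMP against 5.74 and 8.91 in MEP (log2 -2.92 ± 0.27, adjusted p = 1.11e-05). Slc25a12, the mitochondrial aspartate/glutamate carrier, was opposite, with 37.1 and 32.7 RPKM in GMP against 11.1 and 12.6 in MEP (log2 1.48 ± 0.16, adjusted p = 4e-05). Sister carriers of one family thus differed in opposite directions between the gates. Among organic ion carriers, Slc22a3, which takes up monoamines and other organic cations, held 15.9 and 13.9 RPKM in GMP against 58.4 and 68.5 in MEP (log2 -2.02 ± 0.18, adjusted p = 1.09e-05). Slco3a1, a carrier of organic anions such as prostaglandins, held 21.2 and 19.0 RPKM in GMP against 4.58 and 5.79 in MEP (log2 1.77 ± 0.17, adjusted p = 1.86e-05). Of the 8 iron and heme carriers, 3 were lower in GMP and 1 was higher, against the same 9.83% and 11.7% of all tested genes. Slc11a2, which imports ferrous iron, held 5.04 and 4.72 RPKM in GMP against 12.4 and 14.98 in MEP (log2 -1.32 ± 0.17, adjusted p = 0.000168). Slc2a3, a glucose transporter of high affinity, held 6.94 and 6.28 RPKM in GMP against 14.8 and 20.03 in MEP (log2 -1.26 ± 0.18, adjusted p = 0.000393).

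**Figure D2:**
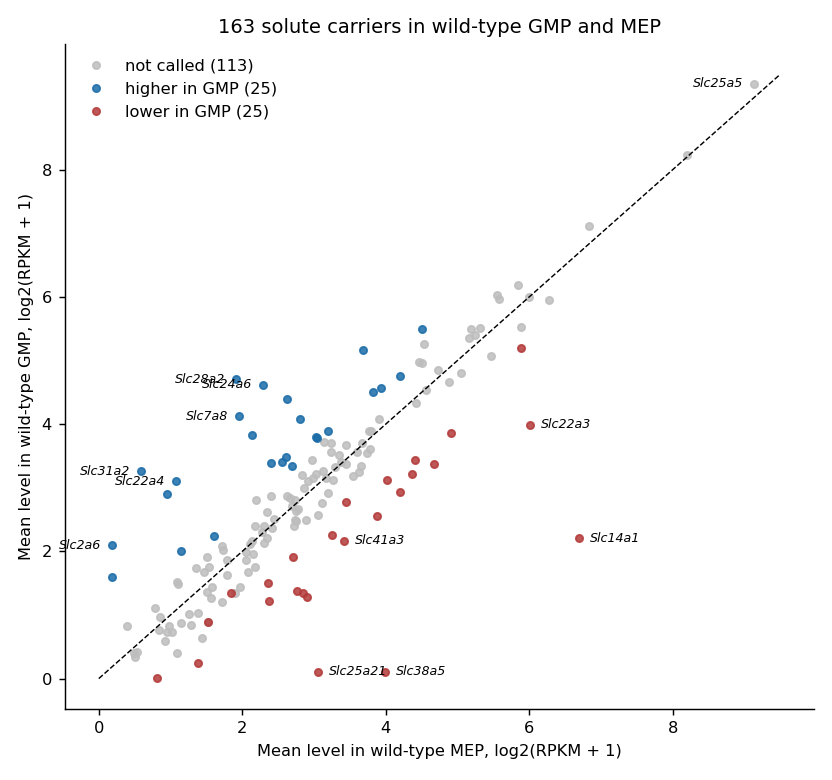
Mean level of the 163 solute carriers in wild-type MEP (horizontal axis) and wild-type GMP (vertical axis), both as log2(RPKM + 1), with members called higher in GMP in blue (25), lower in red (25) and the other 113 in grey; the dashed line marks equal levels. Slc14a1 and Slc38a5 lie farthest below the line and Slc28a2 and Slc31a2 farthest above it.

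Slc14a1 carried the largest difference of the members between the wild-type gates. The GMP libraries held 2.94 and 4.30 RPKM with Runx1 and 9.43 and 11.4 without. The MEP libraries held 80.9 and 125 RPKM with Runx1 and 94.9 and 84.7 without, and those of XMP 222 and 177. Wild-type and Runx1-deleted MEP overlapped (log2 -0.16 ± 0.24, adjusted p = 0.713), while the other groups stood apart from their neighbours in that order. For Slc14a1 the difference between the wild-type gates was -4.47 ± 0.24 on the log2 scale (adjusted p = 1.85e-07). Over the 10 libraries, the genes whose log2 levels correlated most with Slc14a1 were Zfpm1 (Pearson r = 0.989), Rab27b (0.988), Samd14 (0.987), Vwf (0.986) and Mmrn1 (0.985). Vwf and Mmrn1 encode proteins stored in platelet granules. All of these correlations share the 10 libraries, among which the 4 GMP libraries lie far below the others for Slc14a1. Slc14a2, the neighbouring urea transporter gene of chromosome 18, was low throughout, with 0.0146 and 0 RPKM in wild-type GMP, 0.683 and 0.826 in wild-type MEP and 1.22 and 1.21 in XMP.

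Slc22a4, which carries ergothioneine and organic cations, was low in 2 groups and higher in 3. In GMP it held 8.59 and 6.58 RPKM with Runx1 and 10.4 and 8.61 without. In MEP it held 1.16 and 1.05 RPKM with Runx1 and 6.92 and 10.8 without, and XMP held 0.825 and 1.12. Wild-type MEP and XMP overlapped at the low end, and Runx1-deleted MEP overlapped with each GMP group, while the highest wild-type GMP library lay just under the lowest Runx1-deleted GMP library. No library of the first 2 groups came near the other 3. The genes most like it were 4930523C07Rik (r = 0.920), Lipa (0.911), Ptpn6 (0.908), Mocs1 (0.898) and Extl3 (0.887), over the same 10 libraries. On chromosome 11 the next protein-coding genes on one side are its relatives Slc22a21 and Slc22a5, of which Slc22a5 is the main carnitine importer. Slc22a5 stayed between 5.45 and 9.60 RPKM in the 10 libraries, and limma called it in none of the 6 comparisons (adjusted p from 0.207 to 0.999). Slc22a21 lay between 0.251 and 2.01 RPKM.

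**Figure D3:**
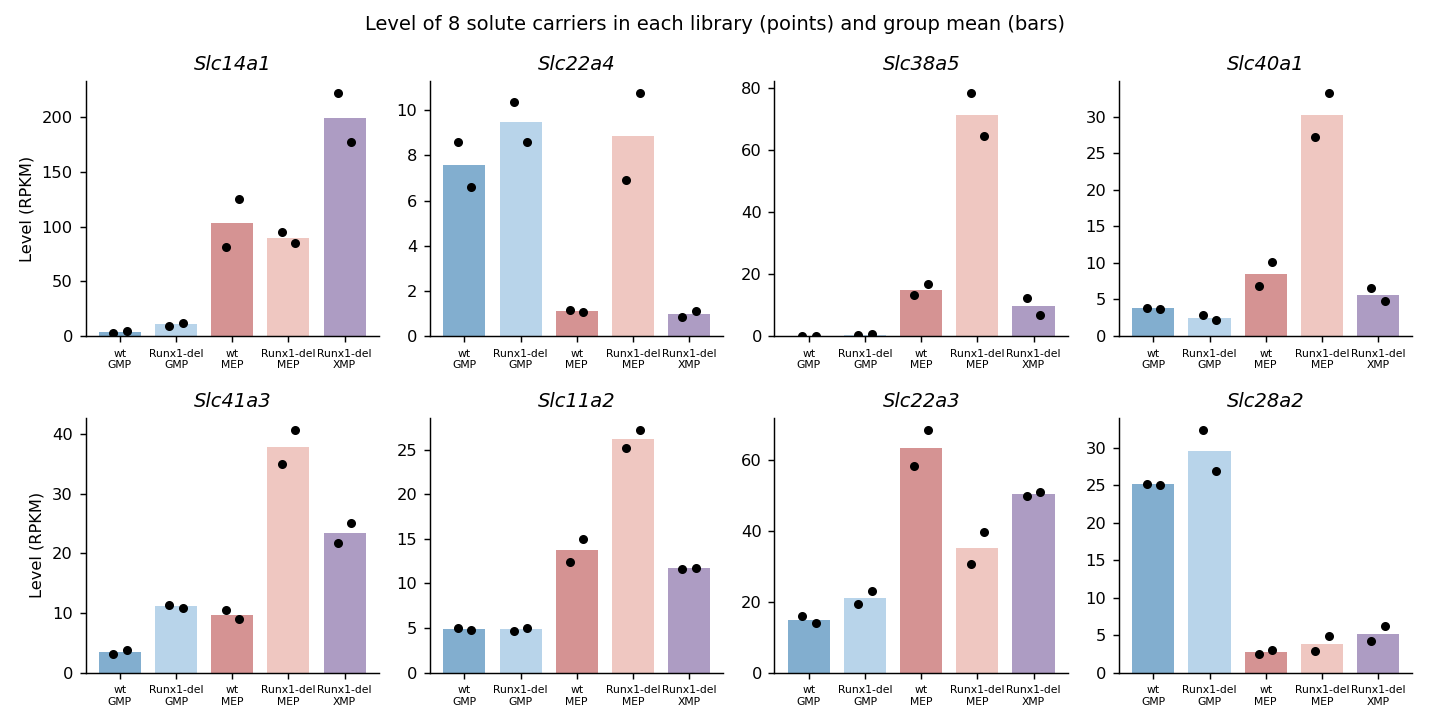
Level (RPKM) of 8 solute carriers in each library (points) and the mean of each group (bars, from 0), with a separate vertical axis for each gene. Slc22a4 is at 6.92 and 10.8 RPKM in Runx1-deleted MEP and near 1 RPKM in wild-type MEP and XMP, and Slc38a5, Slc40a1, Slc41a3 and Slc11a2 are highest in Runx1-deleted MEP.

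The GMP of both genotypes were set against each other to see which solute carriers change with the deletion in that gate. The clearest rise was that of Slc41a3, a carrier of the magnesium transporter family, from 3.19 and 3.80 RPKM to 11.3 and 10.8 (log2 1.43 ± 0.18, adjusted p = 0.000785). Its groups did not overlap, and the call held under each alternative tried. Of the 163 members, 7 (4.29%) rose and 1 (0.613%) fell, against 3.15% and 2.07% of all tested genes. An unadjusted p under 0.05 was found for 30 members, without a count over all tested genes. With the length trend of each library removed, 8 rose and 3 fell (3.76% and 3.39% of all tested genes). The median difference of the members was 0.08, against 0.05 for all tested genes. Leaving out any single library of GMP or Runx1-deleted MEP lowered the count of calls, and leaving out either wild-type MEP library raised it. The share of all tested genes called moved the same way each time.

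Slc14a1 rose in GMP from 2.94 and 4.30 to 9.43 and 11.4 RPKM (log2 1.32 ± 0.24, adjusted p = 0.00741). Leaving out libraries or the filter ended the call: without wild-type GMP replicate 1 (adjusted p = 0.0646), without Runx1-deleted GMP replicate 2 (0.0909) and with no filter on low levels (0.0889). Summed megakaryocyte markers moved the same way in this gate, from 50.4 and 40.1 RPKM to 115 and 133, and summed erythroid markers from 57.9 and 58.6 to 128 and 226. Of the 8 megakaryocyte markers 5 were higher in both deleted libraries and 0 lower, and of the 8 erythroid markers 3 were higher and 1 lower. The part of these markers in the result was not tested. For these and the marker counts below, the share of all tested genes whose libraries lay apart in this way was not counted. Slc25a27, a mitochondrial carrier of the uncoupling protein family, rose from 0.981 and 0.553 to 4.09 and 3.20 RPKM (log2 1.40 ± 0.32, adjusted p = 0.0291). Dropping a single GMP library ended this call whichever of the 4 it was (0.0731 to 0.311), as did using no filter (0.227). The member that fell, Slc4a8, reached the limit only in wild-type GMP and so was selected through the group where it is high; without the 3 members selected in this way, limma called 0 of 160 as lower. It is a sodium-driven bicarbonate exchanger and went from 2.21 and 1.87 to 0.826 and 0.765 RPKM (log2 -0.76 ± 0.13, adjusted p = 0.00494; 0.0539 without Runx1-deleted GMP replicate 2 and 0.0526 with a pseudocount of 0.1). The other 4 members that rose were Slc16a9, Slc22a21, Slc24a5 and Slc24a3, by 0.71 to 0.89 on the log2 scale, and each lost its call without at least 1 library: the adjusted p then reached 0.129 for Slc16a9 and 0.411 for Slc22a21. For Slc24a5 it reached 0.325 and for Slc24a3 0.386.

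The same question was asked of MEP. Here 5 members rose under each alternative tried: the ergothioneine carrier Slc22a4, the glutamine carrier Slc38a5, the magnesium family carrier Slc41a3, the iron exporter Slc40a1 and Slc37a3, a sugar phosphate carrier family member. Of the 163 members, 11 (6.75%) rose and 5 (3.07%) fell, against 3.97% and 4.03% of all tested genes. An unadjusted p under 0.05 was found for 48 members, without a count over all tested genes. The median difference was 0.13 for the members and 0.03 for all tested genes. Without wild-type MEP replicate 2, 46 members were higher and 7 lower (32.5%), but 31.4% of all tested genes were called as well. Leaving out either Runx1-deleted MEP library lowered the count of called members, and the share of all tested genes called fell as well.

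Slc22a4 rose from 1.16 and 1.05 RPKM to 6.92 and 10.8 (log2 2.20 ± 0.23, adjusted p = 0.000166). Slc38a5 rose from 13.1 and 16.8 to 78.2 and 64.4 RPKM (log2 2.19 ± 0.26, adjusted p = 0.000413). Slc41a3 rose from 10.5 and 8.93 to 34.96 and 40.7 RPKM (log2 1.86 ± 0.18, adjusted p = 0.000117). For each of the 3, both Runx1-deleted MEP libraries lay above both wild-type libraries. In lanes 4 and 5 alone, which hold wild-type MEP replicate 2 but not replicate 1, the differences were 2.23, 2.02 and 1.96. Slc37a3 differed by 0.92 ± 0.15 (adjusted p = 0.00323).

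Iron carriers belonged to the members that rose. Slc40a1, ferroportin, the exporter of iron from cells, rose from 6.88 and 10.2 to 27.2 and 33.2 RPKM (log2 1.73 ± 0.23, adjusted p = 0.000925). In lanes 4 and 5 alone, with replicate 2 as the only wild-type MEP library, the difference was 1.48. Slc11a2 rose from 12.4 and 14.98 to 25.2 and 27.2 RPKM (log2 0.89 ± 0.17, adjusted p = 0.00903; leaving out Runx1-deleted MEP replicate 2 gave 0.0938, and fitting only the groups compared gave 0.107). The other 6 iron and heme carriers were not called in this comparison. Slc25a37, the importer of iron into mitochondria in red cell precursors, held 10.2 and 16.2 RPKM in MEP with Runx1 and 21.0 and 24.7 without (log2 0.78 ± 0.22, adjusted p = 0.0604). Slc48a1 held 81.5 and 72.0 against 75.3 and 78.6 RPKM, and the groups overlapped. Summed erythroid markers were 649 and 602 RPKM in wild-type MEP and 954 and 698 in Runx1-deleted MEP, with 4 of 8 markers higher in both deleted libraries and 0 lower. Summed megakaryocyte markers were 859 and 777 against 693 and 565 RPKM, a sum led by Pf4 (590 and 466 against 220 and 158 RPKM): 2 of 8 markers, Pf4 and Gp1bb, were lower and 4, Itga2b, Gp5, Gp9 and Ppbp, were higher. The part of these markers in the iron carrier values was not tested.

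Of the other members that rose, Slc12a4, a potassium-chloride cotransporter, went from 1.93 and 2.66 to 8.73 and 6.41 RPKM (log2 1.38 ± 0.24, adjusted p = 0.00511; leaving out Runx1-deleted MEP replicate 1 gave 0.0527, and using no filter gave 0.0598). Slc7a8 went from 2.30 and 3.46 to 7.21 and 12.2 RPKM (log2 1.44 ± 0.27, adjusted p = 0.00896). It lost its call without wild-type MEP replicate 1 (0.0616), without Runx1-deleted MEP replicate 2 (0.0951), in lanes 4 and 5 alone (0.0954), with only the groups compared (0.0684) and with no filter (0.0952). The Slc22 family moved in both directions in this gate. Slc22a23, a member with no settled substrate, went from 1.01 and 2.21 to 5.65 and 4.77 RPKM (log2 1.28 ± 0.21, adjusted p = 0.00396; 0.059 with no filter and 0.0678 with only the groups compared). Slc22a3 fell from 58.4 and 68.5 to 30.6 and 39.7 RPKM (log2 -0.84 ± 0.18, adjusted p = 0.0178; leaving out Runx1-deleted MEP replicate 1 gave 0.126, as did fitting only the groups compared, and using no filter gave 0.0651). Slc22a17, which takes up lipocalin-bound iron chelators, fell from 1.53 and 2.18 to 0.654 and 0.639 RPKM (log2 -0.79 ± 0.17, adjusted p = 0.0169). Its adjusted p was 0.0867 when Runx1-deleted MEP replicate 1 was left out, 0.119 for replicate 2, with no filter 0.065 and with only the groups compared 0.0819. The remaining called members were Slc44a1 and Slc25a42, which were higher, and Slc16a7, Slc16a3 and Slc22a18, which were lower, and leaving out single libraries ended each of these calls.

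The difference between the Runx1 effects in GMP and in MEP was tested directly for each member. Of 163 members, 2 (1.23%) had an effect that was higher in GMP and 3 (1.84%) one that was lower, against 0.954% and 0.789% of all tested genes. An unadjusted p under 0.05 was found for 26 members, without a count over all tested genes. With quantile normalization the split was 1 and 7 (1.21% and 1.29% of all tested genes). With the length trend removed it was 3 and 8 (1.8% and 1.41%). Slc40a1 changed from 3.84 and 3.75 to 2.85 and 2.12 RPKM in GMP, whereas it rose in MEP (difference of the effects -2.19 ± 0.33, adjusted p = 0.00786). It missed the threshold without wild-type GMP replicate 2 (0.0524), without Runx1-deleted GMP replicate 2 (0.0557) and with no filter (0.0673). Slc22a4 held 8.59 and 6.58 against 10.4 and 8.61 RPKM in GMP, with a gap of less than 1 RPKM between the groups, and its effect differed from that in MEP by -1.90 ± 0.32 (adjusted p = 0.0133). The threshold was missed when wild-type GMP replicate 1 (0.0584), replicate 2 of Runx1-deleted GMP (0.0808) or replicate 2 of Runx1-deleted MEP (0.0586) was left out, and with no filter (0.09).

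Slc38a5 was barely present in GMP, at 0.0812 and 0.0776 RPKM with Runx1 and 0.226 and 0.503 without. Its effects differed by -1.85 ± 0.36 (adjusted p = 0.0277), but the value depends on the pseudocount: with 0.1 the adjusted p was 0.671 and with 0.5 it was 0.0816. Leaving out any 1 of the 4 GMP libraries gave 0.0808 to 0.143, and leaving out a Runx1-deleted MEP library 0.115 or 0.0686. Slc22a3 (difference of effects 1.31 ± 0.26, adjusted p = 0.0281) and Slc22a17 (1.22 ± 0.24, adjusted p = 0.0278) fell in MEP and were not called in GMP. For both, leaving out any 1 of the 4 GMP libraries gave an adjusted p over the threshold, of 0.0618 to 0.183 for Slc22a3 and 0.0849 to 0.149 for Slc22a17, as did leaving out Runx1-deleted MEP replicate 1 (0.12 and 0.105). Slc22a3 also lost its call without either XMP library (0.0501 and 0.0504), and Slc22a17 without Runx1-deleted MEP replicate 2 (0.113). The count of called members fell without any single GMP library or Runx1-deleted MEP library and rose without either wild-type MEP library. In each case the share of all tested genes called moved the same way. For Slc41a3, which rose in both gates, the difference of the effects was -0.43 (adjusted p = 0.726).

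**Figure D4:**
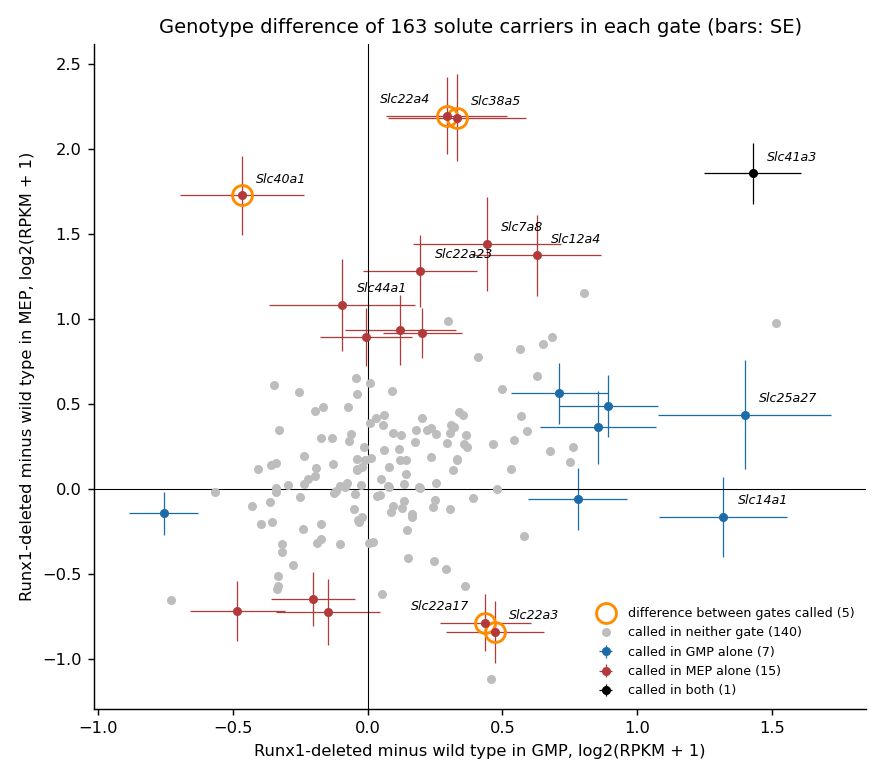
Difference between Runx1-deleted and wild-type libraries on the log2(RPKM + 1) scale in GMP (horizontal axis) and in MEP (vertical axis) for the 163 solute carriers, with standard errors for called members. Slc41a3 is called in both gates, and orange rings mark the 5 members for which the difference between the gates was called: Slc40a1, Slc22a4, Slc38a5, Slc22a3 and Slc22a17.

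XMP was compared with Runx1-deleted GMP, which shares CD16/32 with it, to place its solute carriers within the deleted marrow. XMP held more of the urea transporter Slc14a1, the glutamine carrier Slc38a5, the glucose transporter Slc2a3 and the iron importer Slc11a2, and less of the nucleoside carrier Slc28a2, of Slc22a4 and of the metal carriers Slc31a2, Slc39a8 and Slc39a6. Among the 8 iron and heme carriers 4 were higher and 0 lower, and among the 21 carriers of zinc, copper, magnesium and manganese 1 was higher and 3 were lower. Of the 163 members, 24 (14.7%) were higher and 21 (12.9%) lower in XMP, against 9.75% and 9.9% of all tested genes. An unadjusted p under 0.05 was found for 62 members, without a count over all tested genes. Without the 3 members that reached the limit in 1 group alone, among them Slc14a2 (higher) and Slc4a8 (lower), 23 of 160 were higher and 20 lower. The median difference was -0.01 for the members and 0.05 for all tested genes. Under each alternative tried, 11 higher and 11 lower members kept their call, among them again Slc14a2 (higher) and Slc4a8 (lower). Leaving out a library of either group lowered the count of called members, and the share of all tested genes called fell as well. In lanes 4 and 5 alone, both were higher.

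Slc14a1 rose from 9.43 and 11.4 RPKM in Runx1-deleted GMP to 222 and 177 in XMP (log2 4.13 ± 0.24, adjusted p = 4.07e-07). Slc38a5 was at 0.226 and 0.503 RPKM in Runx1-deleted GMP and at 12.3 and 6.87 in XMP (log2 2.91 ± 0.26, adjusted p = 9.22e-06). Slc2a3 was at 6.73 and 7.34 RPKM against 25.6 and 27.4 (log2 1.78 ± 0.18, adjusted p = 3.24e-05). Each of these was higher in every XMP library than in every Runx1-deleted GMP library. Slc25a24, a mitochondrial carrier that exchanges adenine nucleotides for phosphate, held 7.28 and 7.79 RPKM in Runx1-deleted GMP and 21.2 and 19.3 in XMP (log2 1.32 ± 0.19, adjusted p = 0.00038). Slc24a5, a cation exchanger best known from pigment granules, held 3.71 and 3.04 against 9.98 and 9.45 RPKM (log2 1.29 ± 0.18, adjusted p = 0.000345). Neither was called between XMP and Runx1-deleted MEP (adjusted p = 0.076 and 0.0631).

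Lower in XMP was Slc22a4, at 10.4 and 8.61 RPKM in Runx1-deleted GMP and 0.825 and 1.12 in XMP (log2 -2.41 ± 0.23, adjusted p = 1.51e-05). Slc28a2 was at 32.4 and 26.8 RPKM against 4.19 and 6.21 (log2 -2.32 ± 0.24, adjusted p = 3.38e-05). Slc24a6 was at 21.6 and 18.2 RPKM against 5.54 and 6.34 (log2 -1.59 ± 0.19, adjusted p = 8.91e-05). No XMP library reached the lower Runx1-deleted GMP library in any of the 3. Slc2a6 (log2 -1.98 ± 0.18, adjusted p = 1.2e-05), Slc31a2 (-1.60 ± 0.17, 4.54e-05), Slc43a2 (-1.56 ± 0.20, 0.000183) and Slc36a1 (-1.30 ± 0.25, 0.0027) were lower as well. Slc39a8, a zinc and manganese importer, was at 3.77 and 3.22 RPKM in Runx1-deleted GMP and 1.12 and 1.01 in XMP (log2 -1.12 ± 0.17, adjusted p = 0.000647).

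**Figure D5:**
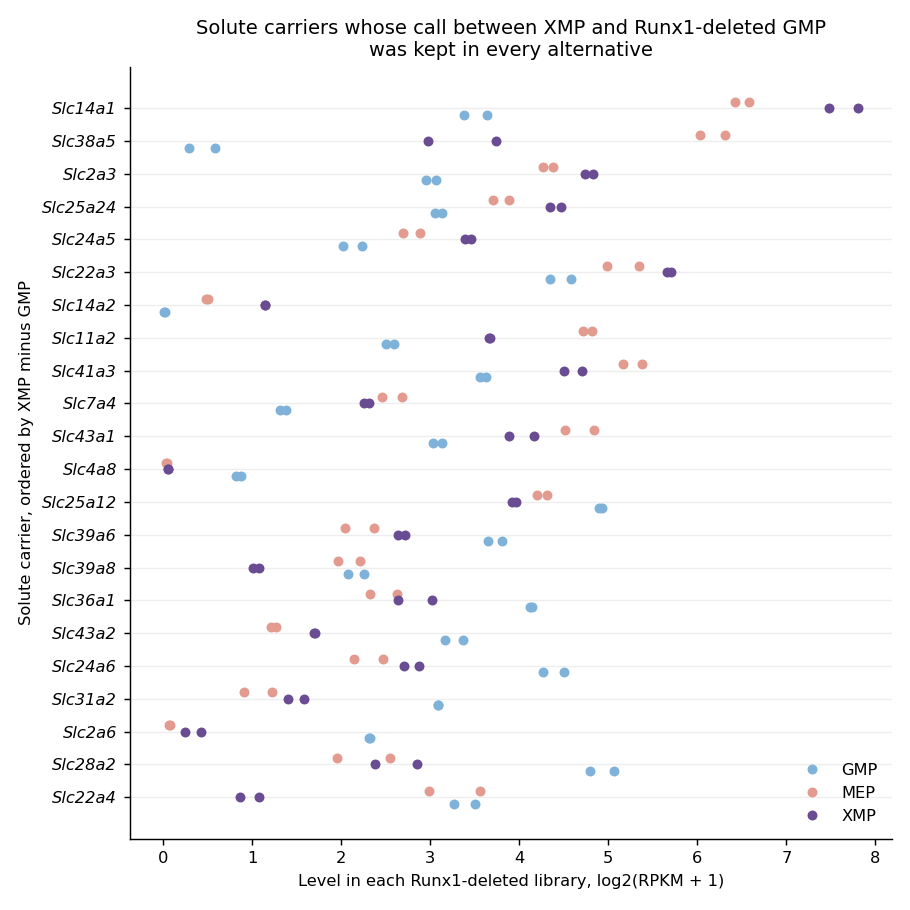
Level of the 22 solute carriers whose call between XMP and Runx1-deleted GMP was kept under every alternative tried, as log2(RPKM + 1) in each of the 2 libraries of Runx1-deleted GMP, MEP and XMP, ordered by the difference between XMP and GMP. Slc14a1 and Slc2a3 are higher in both XMP libraries than in either other group, and Slc22a4 and Slc39a8 are lower. The 22 include Slc14a2 and Slc4a8, which reached the expression limit in 1 group alone.

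XMP was then compared with Runx1-deleted MEP, which shares CD150 with it. Some carriers that rose in Runx1-deleted MEP were lower in XMP, among them Slc38a5, the iron carriers Slc40a1 and Slc11a2, and Slc22a4. The comparison of genotypes in MEP uses the same Runx1-deleted MEP libraries, so the 2 comparisons are not independent. Slco4a1, a carrier of thyroid hormone and other organic anions, was higher in XMP, as was Slc14a1. Of the 163 members, 6 (3.68%) were higher and 14 (8.59%) lower in XMP, against 5.14% and 2.6% of all tested genes. An unadjusted p under 0.05 was found for 47 members, without a count over all tested genes. The 6 include Slc14a2, which reached the limit in XMP alone. Without members that reached it in 1 group alone, 5 of 160 were higher and 14 lower. Lower calls also outnumbered higher ones in lanes 4 and 5 alone and without either wild-type MEP library, but by a smaller margin. The median difference was 0.04 for the members and 0.05 for all tested genes. Under each alternative tried, 1 higher and 7 lower members kept their call. Leaving out a library of any Runx1-deleted group lowered the count of called members, and the share of all tested genes called fell as well.

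Slc38a5 was at 78.2 and 64.4 RPKM in Runx1-deleted MEP and at 12.3 and 6.87 in XMP (log2 -2.81 ± 0.26, adjusted p = 0.000185). Slc25a21 was at 10.2 and 6.59 RPKM against 0.829 and 0.141 (log2 -2.67 ± 0.27, adjusted p = 0.000298). Slc22a4 was at 6.92 and 10.8 RPKM against 0.825 and 1.12 (log2 -2.30 ± 0.23, adjusted p = 0.00027). No XMP library reached the lower Runx1-deleted MEP library in any of the 3. Slc40a1 was at 27.2 and 33.2 RPKM against 6.55 and 4.72 (log2 -2.24 ± 0.23, adjusted p = 0.000357), and Slc11a2 at 25.2 and 27.2 against 11.7 and 11.7 (log2 -1.10 ± 0.17, adjusted p = 0.00329). Slc39a8 was at 3.63 and 2.91 RPKM against 1.12 and 1.01 (log2 -1.04 ± 0.17, adjusted p = 0.00444), and Slc22a23 at 5.65 and 4.77 against 1.51 and 1.17 (log2 -1.41 ± 0.21, adjusted p = 0.00294). Slco4a1 was at 3.03 and 2.92 RPKM in Runx1-deleted MEP and at 8.64 and 9.97 in XMP (log2 1.37 ± 0.19, adjusted p = 0.00165). Summed erythroid markers were 954 and 698 RPKM in Runx1-deleted MEP and 682 and 401 in XMP, with 5 of 8 markers lower in both XMP libraries and 2, Hba-a1 and Hbb-b1, higher. Their part in the lower iron carriers was not tested.

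Slc14a1 was higher in XMP than in Runx1-deleted MEP as well, with 222 and 177 against 94.9 and 84.7 RPKM (log2 1.14 ± 0.24, adjusted p = 0.0146). It did not keep its call without Runx1-deleted MEP replicate 1 (adjusted p = 0.0543) or 2 (0.0893), without XMP replicate 1 (0.123) and with no filter (0.116). Summed megakaryocyte markers moved with it, from 693 and 565 RPKM in Runx1-deleted MEP to 1494 and 1206 in XMP, with 5 of 8 markers higher in both XMP libraries and 0 lower, and their part was not tested. Slc2a1, the basal glucose transporter, was at 5.56 and 3.13 RPKM in Runx1-deleted MEP and at 12.6 and 9.33 in XMP (log2 1.19 ± 0.25, adjusted p = 0.0155). Its call was lost without Runx1-deleted MEP replicate 2 (0.125), without XMP replicate 1 (0.143), with no filter (0.112) and with only the groups compared (0.0677). The 2 comparisons of XMP share its libraries, so they are given side by side without a count of shared direction: Slc22a4 differed by -2.41 from GMP and -2.30 from MEP, Slc39a8 by -1.12 and -1.04, and Slc14a1 by 4.13 and 1.14.

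Other genes of iron and heme handling outside the solute carrier names came from a list with 16 tested members. In Runx1-deleted against wild-type MEP, 2 of the 16 rose and 1 fell (3.97% and 4.03% of all tested genes), with a median difference of 0.33 against 0.03 for all tested genes, and the calls of Tfrc, Fech and Hmox1 were lost under some alternatives (adjusted p of up to 0.175, 0.189 and 0.212). Between the wild-type gates, 3 were higher in GMP and 2 lower (11.7% and 9.83% of all tested genes). Hfe, a regulator of iron uptake, was at 7.61 RPKM on average in GMP against 0.353 in MEP (log2 2.66, adjusted p = 1.46e-06). Steap3, which reduces iron for Slc11a2 in endosomes, was at 14.996 RPKM in GMP against 41.4 in MEP (log2 -1.41, adjusted p = 0.000506). Tfr2, listed as Trfr2, a second transferrin receptor, was at 17.8 and 60.9 RPKM (log2 -1.74, adjusted p = 0.000381).

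A list of partner and accessory proteins of transporters had 16 tested members, of which 2 were higher and 2 lower in wild-type GMP than in wild-type MEP, near the shares of all tested genes (11.7% and 9.83%). Emb, embigin, which escorts monocarboxylate transporters to the cell surface, was at 166 RPKM on average in wild-type GMP and 3.38 in wild-type MEP (log2 5.26, adjusted p = 3.33e-08). It fell further in Runx1-deleted MEP, to 0.629 RPKM (log2 -1.43, adjusted p = 0.00201), and these calls were kept under each alternative tried. The monocarboxylate carrier Slc16a1, which moves lactate, held 21.2 and 27.3 RPKM in wild-type GMP and 23.5 and 33.5 in wild-type MEP, and the groups overlapped.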

How the data were processed

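RNA-seq of 10 libraries was used as 1 deposited table. Per the file headers, the authors gave RPKM for 23240 genes in each library, and p-values of Baggerley's test between groups, which were not used here. The submitters' processing notes name mm9 as genome build. Which programs aligned and counted reads: not given in the sources used here. The labels name 2 library kits without saying which library had which. Groups, lanes and library numbers came from the labels and headers.

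The 10905 genes that reached 1 RPKM in 2 libraries or more were fitted as log2(RPKM + 1) with limma 3.58.1 in R 4.3.3 (lmFit, eBayes with trend), with 1 mean per group over all 10 libraries, 5 residual degrees of freedom, and Benjamini-Hochberg adjustment over all 10905. A simulation of Runx1-deleted against wild-type GMP covered 10905 genes. Of genes changed in RPKM + 1, 50 of 100 changed 2-fold and 97 of 100 changed 4-fold were called, with 12 false calls. The changed genes had a mean of at least 5 RPKM, which 98 of the 163 members reach. The simulated spread held no effect of lane or library number. These rates therefore do not carry over to members of lower level or to differences between lanes. Totals of 20.8 to 54.9 M reads were worked back from the RPKM steps, which gave whole reads for 19329 genes within 0.01 read.

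Members, lists and tests were chosen with earlier results of these data known. Named genes are Slc14a1 and Slc22a4, called members with separate groups and a mean of at least 3 RPKM in the higher group (up to 12 in each direction), called urea, iron and organic ion carriers, the highest members of the classes, and up to 3 genes of each related list and direction with the smallest p. Slc16a7, Slc16a9, Slc22a5, Slc25a3, Slc25a4, Slc37a3, Slc3a2, Slc4a8 and Hk2 were named after their values were seen. Alternatives were normalization, variance model, filters, pseudocounts, groups in the fit, replicate and library number blocks, gene length, lanes, and leaving out each library. Counts without members that reached the limit in 1 group alone were added after seeing the data. One gene just outside the expression limit is not reported here.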

Additional observations from a re-analysis of the deposited data

Results flagged for a closer look

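A difference between the gates was called for the Runx1 effect of 5 solute carriers, by a test of the difference itself (limma, effect in GMP minus effect in MEP, on the log2 scale). The value was -2.194 for Slc40a1, the iron exporter, -1.905 for Slc22a4, the ergothioneine carrier, and -1.855 for Slc38a5, a glutamine carrier. It was 1.313 for Slc22a3, an organic cation carrier, and 1.223 for Slc22a17. Against these 5 of 163 members, 26 had an unadjusted p under 0.05, and each of the 5 calls was lost without at least 1 library.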

How the results depend on the processing

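Of 144 calls of members over the 6 comparisons, 67 were kept under every alternative, and no called value changed sign. In the order Runx1-deleted against wild-type GMP, the same in MEP, their difference, XMP against Runx1-deleted GMP, XMP against Runx1-deleted MEP and the wild-type gates, 8, 16, 5, 45, 20 and 50 members were called. Leaving out 1 library gave 1 to 19, 9 to 53, 0 to 12, 24 to 55, 9 to 30 and 36 to 66. The share of all tested genes called shifted as well, here and in lanes 4 and 5 alone. With no filter, 2, 9, 1, 35, 11 and 41 members were called, against 1.92%, 2.37%, 0.723%, 8.8%, 2.09% and 9.87% of 23240 genes. With a mean of at least 5 RPKM, 2, 7, 4, 26, 12 and 34 of 98 members were called. Of the 7788 genes tested there, 2.52%, 5.29%, 0.809%, 15.4%, 7.52% and 17.7% were called. With only the groups compared, 17 members (10.4%) were called in GMP and 6 (3.68%) in MEP, against 17.7% and 3.12% of all tested genes. With a pseudocount of 0.1, 5 (GMP) and 2 (difference) were called, against 4.7% and 0.734% of all tested genes. Quantile normalization gave 8 (4.91%) for the difference, against 2.5% of all tested genes. With the length trend removed, 29 (17.8%, MEP), 11 (6.75%, difference) and 31 (19%, XMP against MEP) were called. The shares of all tested genes were then 12.4%, 3.21% and 14.8%. In lanes 4 and 5 alone, 32 were called for XMP against MEP. The causes of these shifts were not tested. By the replicate numbers, deviations of same-numbered libraries correlated at -0.475 to 0.782. By library number (25 to 29 against 30 to 34) they correlated at 0.297 to 0.782 in the 6 pairs of groups without wild-type GMP and at -0.147 to 0.0586 in the 4 with it, and no label says what these numbers share. A replicate block gave 6, 21, 5, 45, 17 and 49 calls, against 5.06%, 7.74%, 1.59%, 19.4%, 7.35% and 21.2% of all tested genes. A block for the library number gave 8, 21, 5, 49, 21 and 49, against 6.49%, 9.78%, 1.93%, 21.7%, 9.38% and 23.8%. With 2 libraries per group, differences of 2-fold are often missed.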

Other observations

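A list of glycolytic enzymes, which also held the pyruvate dehydrogenase kinase Pdk1, had 17 tested members. In XMP against Runx1-deleted GMP, 9 were lower and 1 was higher (9.9% and 9.75% of all tested genes). The median difference was -0.81 against 0.05 for all tested genes. The calls of Tpi1, Pfkp, Gapdh and Aldoa were lost under some alternatives. Pgam1, phosphoglycerate mutase, was at 265 RPKM on average in Runx1-deleted GMP and 51.7 in XMP (log2 -2.36, adjusted p = 3.6e-05, limma). Hk2 was at 18.9 and 5.08 RPKM (log2 -1.71, adjusted p = 0.000641), whereas its relative Hk1 was at 82.5 and 197 RPKM (log2 1.25, adjusted p = 0.000532). Both are hexokinases, which trap the glucose that sugar carriers bring in. Between the wild-type gates, 9 members were higher in GMP and 2 lower (11.7% and 9.83% of all tested genes). Here the calls of Pgk1, Pdk1 and Gapdh were lost under some alternatives.

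Water channels and ABC transporters formed a list with 24 tested members. In Runx1-deleted against wild-type MEP, 5 rose and 1 fell (3.97% and 4.03% of all tested genes). The calls of Aqp1, Aqp9, Abcb4, Abcc4 and Abcb1b were lost under some alternatives. Abca3, a lipid pump of intracellular membranes, was at 7.68 RPKM in wild-type MEP and 21.8 in Runx1-deleted MEP (log2 1.42, adjusted p = 0.0027), a call kept under each alternative tried. Aqp11, an aquaporin of the endoplasmic reticulum, was at 18.2 RPKM in Runx1-deleted MEP and 6.03 in XMP (log2 -1.45, adjusted p = 0.00294). In the list of amino acid response and serine synthesis genes (15 tested), Asns, asparagine synthetase, was at 15.3 RPKM in wild-type MEP and 1.11 in Runx1-deleted MEP (adjusted p = 7.33e-05, with a log2 difference of -3.86 to -2.58 over the alternatives). It was the 1 member of that list called in this comparison, where 4.03% of all tested genes fell.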
